A study of Homo sapiens with 2 samples.

Results

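A set of 9 genes of the epithelial tight junction were followed across the arrays: CXADR, F11R, TJP1, OCLN, CLDN1, CLDN3, CLDN4, CLDN7 and CLDN12. Every probe set annotated to 1 of these 9 genes and to no other was taken, which gave 19 probe sets for 8 of the genes out of 44988 probe sets for 18132 genes on the array. No probe set was assigned to F11R here, so that gene was not analysed here. The genes were chosen with the difference between the arrays already known, so the values below are descriptions of that difference and not evidence for it.

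The study asked what RAP1 does in colorectal cancer cells. Its cells were HCT116, an established epithelial line from a human colorectal carcinoma, cultured in wells and infected for 72 h with lentivirus at 20 infectious units per cell. One culture (shNC) received a negative-control short hairpin RNA (shRNA), and the other (shRAP1) received 1 shRNA, numbered 4, against RAP1. Each group was a single array, so both carried virus and an shRNA but neither had a replicate, and the effects of this hairpin and of its target cannot be told apart. Each difference is the log2 value of shRAP1 less that of shNC, given with no test and no p-value, because precision is limited by the number of arrays.

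Tight junctions close the gap between neighbouring epithelial cells at the apical end of their lateral membranes. Claudins form the paracellular strands and set which ions pass, while occludin joins them as a tetraspan protein of the MARVEL family. Junctional adhesion molecule A, the product of F11R, and CXADR are single-pass proteins of the immunoglobulin superfamily that bind their like on the next cell, and CXADR is also the receptor by which coxsackie B viruses and many adenoviruses attach. Inside the cell, the scaffold ZO-1, encoded by TJP1, binds the tails of these proteins through PDZ and other domains and links them to actin. In the colonic epithelium these proteins form a barrier and take part in sorting apical from basolateral membrane.

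Junction genes are textbook targets of repressors such as SNAI1 and ZEB1, which bind E-box sequences near gene starts, so the DNA just before the start sites was read. RefSeq promoters (build GRCh38.p14) were matched for 7 of the 9 genes. CXADR and F11R had no match, so the motif was not searched for in either. The 250 bases before the most upstream start are shown 5′ to 3′ for the pair that held an E-box, OCLN and TJP1, and for the neighbouring genes CLDN3 and CLDN4, which were both slightly higher in shRAP1. The motif was CACCTG, whose reverse complement is CAGGTG, searched on both strands, and capitals mark it.
OCLN (chr5:69492297-69492546, plus strand): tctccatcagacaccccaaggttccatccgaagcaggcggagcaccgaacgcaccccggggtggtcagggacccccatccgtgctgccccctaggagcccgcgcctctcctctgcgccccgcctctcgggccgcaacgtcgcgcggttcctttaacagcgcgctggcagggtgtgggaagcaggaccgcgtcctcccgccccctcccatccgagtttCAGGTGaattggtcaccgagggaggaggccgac
TJP1 (chr15:29969050-29969299, minus strand): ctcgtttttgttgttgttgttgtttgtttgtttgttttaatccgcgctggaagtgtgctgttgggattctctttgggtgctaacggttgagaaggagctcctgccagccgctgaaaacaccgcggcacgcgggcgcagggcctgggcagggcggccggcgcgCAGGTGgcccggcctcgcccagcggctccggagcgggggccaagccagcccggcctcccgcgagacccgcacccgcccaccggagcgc
CLDN3 (chr7:73770271-73770520, minus strand): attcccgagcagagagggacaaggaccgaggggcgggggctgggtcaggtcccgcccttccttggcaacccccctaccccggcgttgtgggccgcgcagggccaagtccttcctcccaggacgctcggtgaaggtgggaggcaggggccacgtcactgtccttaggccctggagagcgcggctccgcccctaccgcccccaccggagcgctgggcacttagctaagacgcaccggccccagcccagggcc
CLDN4 (chr7:73830746-73830995, plus strand): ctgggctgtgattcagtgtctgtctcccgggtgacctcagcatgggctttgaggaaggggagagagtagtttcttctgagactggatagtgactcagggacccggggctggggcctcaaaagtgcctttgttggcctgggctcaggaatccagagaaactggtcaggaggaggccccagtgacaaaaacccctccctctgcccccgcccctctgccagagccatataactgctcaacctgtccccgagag
Of 35116 windows of the same length, 17.5% held the motif. In OCLN its first base lay 33 bases before the start and in TJP1 88 bases before it. Both annotated starts of OCLN had the motif, but only 1 of the 4 of TJP1 did. None of the windows of CLDN1, CLDN3, CLDN4, CLDN7 and CLDN12 held these letters, although another annotated start of CLDN7 did. Among the genes whose windows are not shown, CLDN7 and CLDN12 were lower in shRAP1, at −0.072 and −0.067. A link between the motif and the direction was not tested. A match is a description of the letters and not a bound site. The CLDN3 and CLDN4 windows lie on opposite strands of chromosome 7, and the CLDN4 window had 4 CpG dinucleotides against 19 for CLDN3 and a median of 11 over all windows.

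The targeted gene was checked first. RAP1 can mean the telomere protein TERF2IP or the small GTPases RAP1A and RAP1B. TERF2IP read 1311 in shNC and 624 in shRAP1 on its only probe set, or 47.6% of shNC, the 2nd lowest difference among 10437 measured genes. The brightest probe sets of RAP1A and RAP1B stood at 88.0% and 93.3% of shNC. All their measured probe sets were lower, the 3 of RAP1A between −0.23 and −0.18 and the 2 of RAP1B between −0.15 and −0.10. The epithelial label was borne by 7 of 10 colonic epithelium markers above the floor described below, EPCAM, CDH1, CDX2, KRT8, KRT18, KRT19 and KRT20, whose brightest probe sets summed to 31048 in shNC and 31810 in shRAP1. CDX1, VIL1 and LGALS4 were below the floor on both arrays. Markers of other cell types were low on both arrays. Of 7 leukocyte markers 2 reached the floor, LST1 and TYROBP, and the brightest probe sets of the 6 with a probe set, mostly below the floor, summed to 257 in shNC and 263 in shRAP1. Of 10 fibroblast and endothelial markers only VWF reached it, at 129 and 125, and all 10 summed to 353 and 368. PTPRC, CD3E, COL1A2, PECAM1 and CDH5 were below the floor on both arrays.

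Among the tight junction genes, CXADR was higher in shRAP1, and the 6 other measured genes lay between 90.6% and 107% of their control level. In bulk RNA such as this, a change in how many cells express a gene and a change in its RNA per cell cannot be told apart. The deposited values are intensities on a linear scale. A probe set counted as measured when at least 1 of its values was 78.0 or more, which is the median over all non-control probe sets, and 7 of the 9 genes passed this floor with 15 probe sets. Of these 15 probe sets, 12 have names ending in _s_at or _x_at, a naming that marks possible matches to further transcripts. A gene was read from its brightest such probe set, which gave 10437 genes with an SD of the difference of 0.16 over genes. The size of 1.2-fold, or 0.26 on the log2 scale, was used for counting. At this size 1 of the 7 genes was higher (CXADR) and 0 were lower, where 4.96% of all measured genes were higher and 3.58% lower. At 1.5-fold the count was again 1 higher and 0 lower, with 0.211% of all genes higher and 0.172% lower. At 1.1-fold it was 1 higher and 1 lower, OCLN, with 19.5% of all genes higher and 14.4% lower. Nothing is read from these shares, because the genes were chosen on this contrast.

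**Figure D1:**
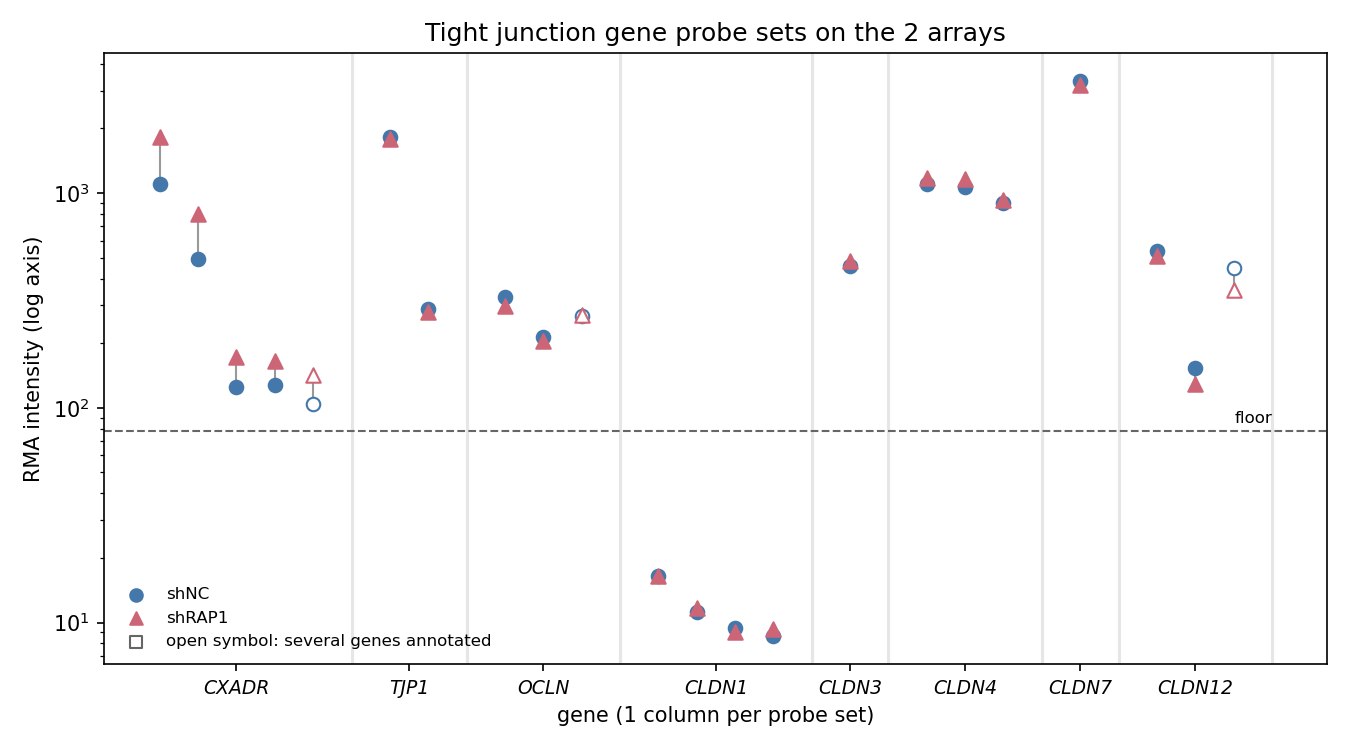
RMA intensity (log axis) of each probe set of 8 tight junction genes on the shNC array (circles) and the shRAP1 array (triangles); open symbols are probe sets annotated to several genes, and the dashed line is the floor of 78.0. The CXADR triangles lie above their circles on every probe set, the CLDN1 probe sets all lie below 17, and the other pairs nearly overlap apart from CLDN12.

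CXADR, which encodes the coxsackievirus and adenovirus receptor, lies on chromosome 21 (gene ID 1525) and had 4 probe sets. The brightest, 11758000_s_at, read 1096 in shNC and 1830 in shRAP1, which is 1.67-fold higher. The second, 11720637_x_at, read 494 and 803, or 1.62-fold higher. Both bright probe sets were therefore well above the floor on both arrays.

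The 2 dimmer CXADR probe sets differed in the same direction by less. Probe set 11754050_x_at read 125 in shNC and 172 in shRAP1, a difference of 0.46. Probe set 11753834_x_at read 128 and 165, a difference of 0.37. All 4 values of shRAP1 were thus higher than their shNC values, and the difference was 0.74 and 0.70 on the bright pair against 0.46 and 0.37 on the dim pair. All 4 exceeded 1.2-fold upward and 0 of the 15 probe sets of the set did so downward, where 4.84% of all probe sets past the floor were that much higher and 4.91% lower.

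A further probe set, 11753586_s_at, is annotated to CXADR together with its pseudogenes CXADRP2 and CXADRP3 and 1 further locus, and was left out of the gene's value. It read 104 and 142, a difference of 0.45. Since all 4 single-gene probe sets also end in _s_at or _x_at, the part of these near-identical copies in the CXADR signal was not tested.

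The CXADR difference of 0.74 was the 8th highest among 10437 genes and 5.15 times the SD of the 522 genes nearest to it in mean value, a spread between genes and not an experimental error. The 7 genes above it, RUNX2, EGR3, FOXQ1, TENM3, TSPAN18, SPTSSB and PPIL6, all had a lower mean signal, at most 7.78 on the log2 scale against 10.47 for CXADR. Of the 1507 other genes whose probe set was at least as bright, none differed upward by more than DKK1, a Wnt antagonist, at 0.60. Brightness depends on the probes as well as the RNA, so this ranks the differences and not the amounts of RNA.

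**Figure D2:**
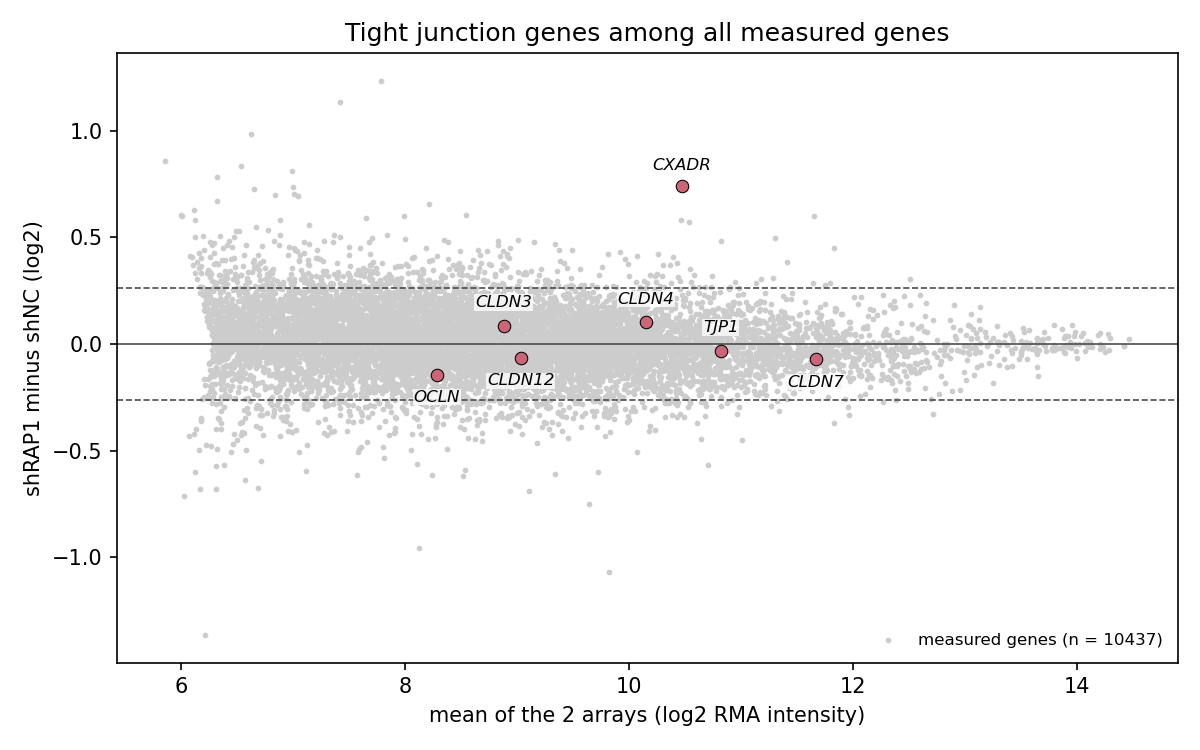
Difference of shRAP1 minus shNC (log2) against the mean of both arrays (log2 intensity) for 10437 measured genes in grey, with the 7 measured tight junction genes in red and dashed lines at 1.2-fold. CXADR stands apart at 0.74, while the other 6 lie inside the dashed lines, between −0.14 and 0.10.

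The 5 genes whose difference was nearest to that of CXADR over these 2 arrays were DPP4, BST2, GCNT3, PLPP3 and PPIL6. DPP4, a membrane peptidase of the intestinal brush border, read 99.1 in shNC and 165 in shRAP1, a difference of 0.74. BST2, which tethers budding virus particles to the membrane, read 78.1 and 129, a difference of 0.73. GCNT3, an enzyme that branches mucin O-glycans, read 101 and 165, a difference of 0.70. PLPP3, a lipid phosphate phosphatase, differed by 0.70, and PPIL6, of the cyclophilin family, by 0.78, its shNC value being under the floor. None of these 5 is a junction protein of the lists used here, and the likeness is only that of 1 difference.

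The scaffold TJP1 and the MARVEL protein OCLN, which with the claudins make up the body of the junction, were close to their control level. TJP1, on chromosome 15, had 1826 in shNC and 1786 in shRAP1 on its brighter probe set and 288 and 279 on the other, differences of −0.032 and −0.049. Both values are small beside the SD of 0.13 among genes of similar brightness. OCLN, on chromosome 5, had 327 and 296 on its brighter probe set and 213 and 205 on the other, differences of −0.14 and −0.053.

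The OCLN difference was the lowest among the 7 genes, yet 32.0% of all measured genes had a larger difference in size. A further OCLN probe set, shared with the pseudogene OCLNP1 and so left out, read 268 and 272, a difference of 0.019 with the opposite sign. The direction of OCLN therefore differs between its single-gene and shared probe sets. The E-box shown above in the OCLN and TJP1 windows is a property of these genes' sequence only. SNAI1, one of the repressors named there, read 77.7 and 79.5, at the floor, and SNAI2, ZEB1, ZEB2 and TWIST1 were below it on both arrays.

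The claudins did not share a direction. CLDN3 and CLDN4, the receptors of Clostridium perfringens enterotoxin and neighbours on chromosome 7, were both slightly higher in shRAP1. CLDN3 read 457 in shNC and 485 in shRAP1 on its only probe set, a difference of 0.087. CLDN4 read 1098 and 1178 on the brightest of 3 probe sets, a difference of 0.10.

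The other 2 CLDN4 probe sets read 1070 and 1157 and 899 and 925, differences of 0.11 and 0.040, so all 3 were higher in shRAP1. CLDN7, on chromosome 17, a claudin of basolateral as well as apical membrane in the gut, read 3332 in shNC and 3169 in shRAP1, a difference of −0.072. The difference of CLDN4 was 0.73 times the SD among genes of like brightness, and those of CLDN3 and CLDN7 were 0.58 and 0.65 times. For CLDN3, 53.1% of all measured genes differed by more in size, for CLDN4 46.9% and for CLDN7 60.2%.

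CLDN12, a claudin without the usual PDZ-binding tail, lies on another stretch of chromosome 7 and was lower in shRAP1 on all its probe sets, by uneven amounts. The brighter, 11720206_s_at, read 536 in shNC and 512 in shRAP1, a difference of −0.067. The dimmer, 11720205_a_at, read 154 and 129, a difference of −0.25, just short of 1.2-fold. A probe set annotated to CLDN12 together with the gene GTPBP10 and 1 further locus read 447 and 353, a difference of −0.34, and was not used because its signal cannot be assigned to CLDN12. The size reported for CLDN12 depends on the probe set chosen, as it does for CXADR.

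CLDN1, on chromosome 3, a barrier-forming claudin of skin and gut, was not above the floor on either array. Its 4 probe sets read 16.4, 11.2, 9.46 and 8.63 in shNC and 16.5, 11.7, 9.07 and 9.33 in shRAP1. The array's 23 background probe sets had a median of 9.84 in shNC and 9.86 in shRAP1. They ranged widely, from 6.13 to 3952 in shNC and from 6.29 to 4300 in shRAP1. A difference for CLDN1 cannot be read at this signal. Its 4 differences (0.0084, 0.071, −0.060 and 0.11) were shared to 6 decimals by 42, 11, 42 and 44 probe sets of the array. The bright CXADR probe sets, by comparison, had differences that no other probe set shared.

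Over the 7 measured genes the median difference was −0.032 and the mean 0.088, of opposite sign. Without CXADR the 6 others had a mean of −0.021 and a median of −0.050, against 0.010 over all measured genes. Of the 7, 3 stood higher and 4 lower, where 53.2% of all genes were higher and 46.8% lower by any size. Of the 15 probe sets, 8 were higher and 7 lower, where 49.4% of all probe sets past the floor were higher and 50.6% lower, and 4 of the 8 belonged to CXADR.

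Relatives of these proteins, taken from lists drawn up around the 9 genes, were mostly not measurable. Of 10 further members of the junctional adhesion molecule and CXADR-like family, ESAM, of endothelial junctions, and VSIG2 passed the floor, at −0.0025 and 0.031. JAM2, JAM3, CLMP and IGSF5 were below it on both arrays. Of 17 other claudins, CLDN15, a cation-channel claudin of the intestine, read 441 and 469, a difference of 0.088, and CLDN19 differed by −0.028. CLDN2, CLDN8 and CLDN23, known from the gut, were below the floor. Among the 3 measured genes of the CXADR-like family only CXADR, chosen with its difference known, was past 1.2-fold, so nothing is read from this count. Over all measured genes 4.96% were that much higher and 3.58% lower. In shNC, ESAM read 187 and VSIG2 146, against 1096 for CXADR.

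Further MARVEL and angulin genes, some of tricellular contacts where 3 cells meet, differed little on their brightest probe sets apart from ILDR1. Of 4 measured genes 3 lay above 0 and 1 below, or 2 and 2 after lowess centring, around a median of 0.069. At 1.2-fold 1 was higher and 0 were lower, where 4.96% of all genes were higher and 3.58% lower. ILDR1, an angulin, read 107 in shNC and 128 in shRAP1, a difference that only just reached the counting size of 1.2-fold and no longer did so after lowess centring, which subtracts the trend of the difference with brightness. LSR, another angulin, read 2141 and 2332, a difference of 0.12. MARVELD2, which encodes tricellulin, differed by −0.045, and MARVELD3 by 0.014 on its brightest probe set but by 0.35 on its dimmest.

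Genes of the cytoplasmic plaque were mostly slightly higher. Of 10 measured scaffold genes, 9 were higher and 1 lower in shRAP1, also after lowess centring, with a median of 0.11, or 0.080 when centred. Over all measured genes 53.2% were higher. In this list 2 reached 1.2-fold upward and 0 downward, where 4.96% of all genes were that much higher and 3.58% lower, and after centring neither of the 2 did. CGN, which encodes the actin-binding plaque protein cingulin, read 109 in shNC and 132 in shRAP1, a difference of 0.28 with its other measured probe set at 0.12. TJAP1, a plaque protein also found at the Golgi, read 298 and 359, a difference of 0.27 with 3 probe sets between 0.27 and 0.28. YBX3, the ZO-1-associated nucleic acid binding protein, differed by 0.19, and the angiomotin relative AMOTL1 by 0.15.

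Among the scaffold genes 19 of 22 measured probe sets were higher, where 49.4% of all probe sets past the floor were, and for 8 of the 10 genes every measured probe set was. The lower one was SYMPK at −0.014. Both probe sets of TJP1, which was not counted in this list, were slightly lower. TJP3 and MPDZ were below the floor.

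**Figure D3:**
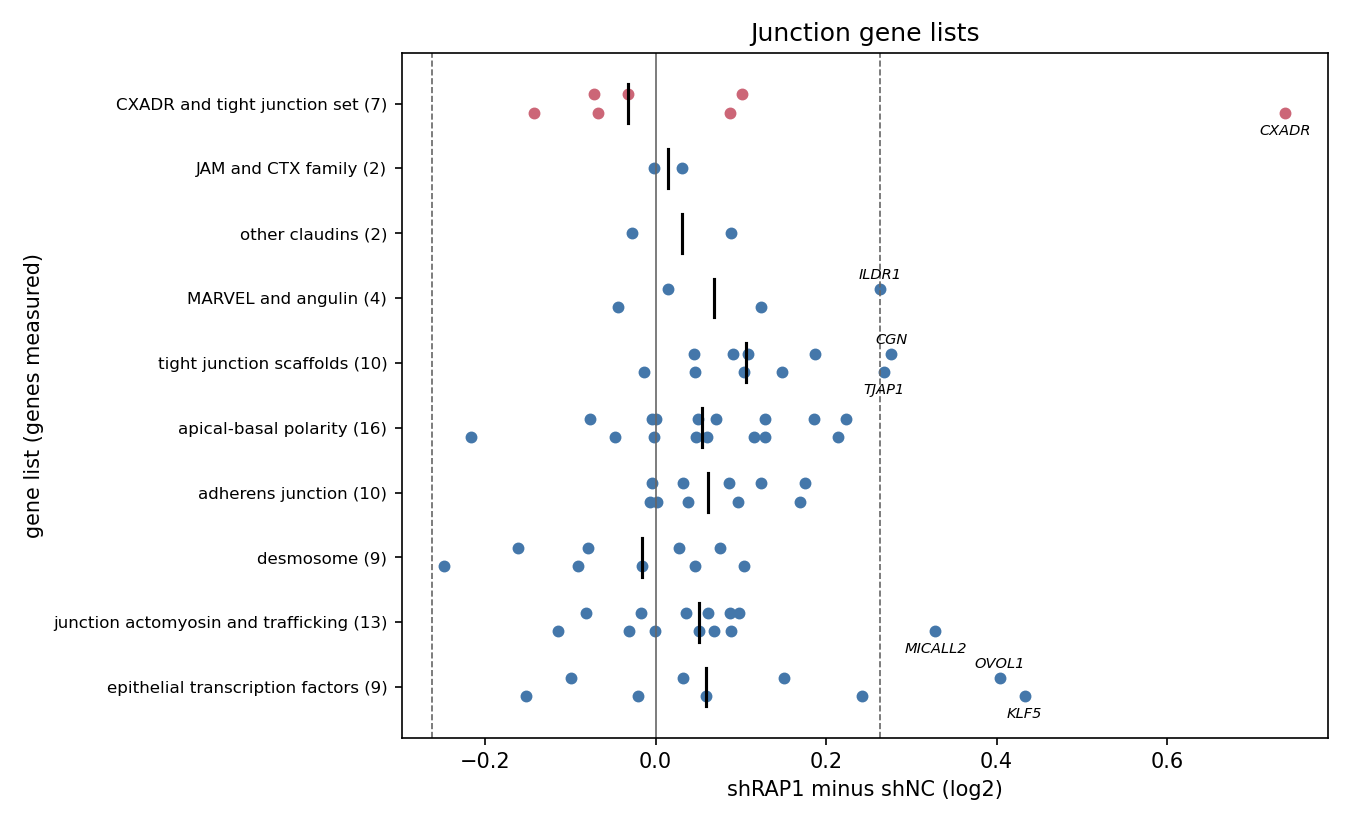
Difference of shRAP1 minus shNC (log2) for each measured gene of the tight junction set (red) and of 9 related lists (blue), with the number of genes measured in brackets, black bars at the medians and dashed lines at 1.2-fold. CXADR lies farthest out at 0.74, and the scaffold list has a median of 0.11 with 9 of its 10 genes above 0.

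Of 16 apical-basal polarity genes, 11 stood higher and 5 lower, and their median was 0.055, where 53.2% of all genes were higher. None passed 1.2-fold, where 4.96% of all genes were that much higher and 3.58% lower. The lateral-membrane protein LLGL2 differed by 0.22 (−0.0036 on its dimmer probe set), and the PAR complex gene PARD6B by 0.21 (0.31 on its dimmer probe set). Its partner PARD3 was at 0.19 on its brightest probe set, but its 3 others lay between −0.22 and −0.015. PALS1, a Crumbs complex scaffold, was at −0.22, with 5 probe sets between −0.22 and 0.068. Counted over all 45 of their measured probe sets, 16 lay above 0 and 29 below, around a median of −0.015. Over all probe sets past the floor 49.4% were higher and 50.6% lower. The 29 included all 7 measured probe sets of CDC42 and all 7 of DLG1. The direction of that list thus depends on how probe sets are combined. Among 10 adherens junction genes the split was 8 higher to 2 lower around a median of 0.062, or 0.080 after lowess centring, none past 1.2-fold. Its leading genes were P-cadherin (CDH3) at 0.18, NECTIN1 at 0.17, E-cadherin (CDH1) at 0.12 and alpha-catenin (CTNNA1) at 0.097, the last with 6 probe sets between −0.038 and 0.097. The dimmer CDH1 probe set was at 0.25. For 9 desmosome genes it was 4 higher to 5 lower around −0.016, or 5 to 4 around 0.0061 after lowess centring, again with none past 1.2-fold. For both of these lists the shares over all genes are those given above. The desmosomal cadherin gene DSC2 differed by −0.25, with 5 measured probe sets between −0.32 and −0.034. The plakophilin gene PKP2 differed by −0.16, with its other probe set at 0.15. PKP4 was at 0.10, and PERP at −0.091 with 3 probe sets between −0.097 and 0.25.

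Of 13 genes for actomyosin and traffic at the junction, 8 lay above 0 and 5 below, around a median of 0.050, with 1 past 1.2-fold upward and 0 downward, against those same shares of 4.96% and 3.58% over all genes. That gene, MICALL2, which encodes the RAB13 partner that takes part in the recycling of occludin, read 483 in shNC and 606 in shRAP1, a difference of 0.33 with 3 probe sets between 0.24 and 0.33. RAB13 itself was at 0.062, its 3 probe sets ranging from −0.031 to 0.098. The kinase gene ROCK1 was at −0.11. The gene of the protease inhibitor SPINT1 was at 0.089, the lowest of 4 measured probe sets that reached 0.32.

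Of 9 measured genes in the list of epithelial transcription factors, 6 lay above 0 and 3 below, around a median of 0.059 (0.018 after lowess centring). At 1.2-fold 2 were higher and 0 lower, where 4.96% and 3.58% of all genes were. The list mixes factors of opposite roles and also holds splicing regulators, so its median gives no direction for the epithelial state. SNAI1, a repressor named above, was among the 6 higher, at 0.032 and at the floor. KLF5, a factor of proliferating crypt epithelium, read 834 in shNC and 1126 in shRAP1, a difference of 0.43 with 3 probe sets between 0.18 and 0.43. OVOL1, a zinc finger repressor that favours the epithelial state, read 422 and 558, a difference of 0.40, with its second measured probe set at 0.27 and the dimmest, below the floor, at −0.11. KLF4, of differentiated gut epithelium, was at 0.24 (0.33 on its dimmer probe set), and the splicing regulator ESRP2 at −0.15. CDX2 and GRHL2 were at 0.059 and −0.021.

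Junctional adhesion molecule A is known to activate the RAP1 GTPase, meaning RAP1A and RAP1B and not TERF2IP, through afadin and an exchange factor. Of 6 measured genes of that route, 2 lay above 0 and 4 below, around a median of −0.025. None passed 1.2-fold, where 4.96% of all genes were that much higher and 3.58% lower. The exchange factor gene RAPGEF2 differed by 0.20 and RAPGEF6 by 0.061, its 5 measured probe sets ranging from −0.015 to 0.26. The afadin gene AFDN differed by −0.0044, with its other measured probe set at 0.23. RAP1A and RAP1B were at −0.18 and −0.10, with their other measured probe sets lower still.

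The last list held other receptors of coxsackie B viruses or adenoviruses, including adenoviruses that do not attach to CXADR. Of 6 measured genes, 4 lay above 0 and 2 below, around a median of 0.040. At 1.2-fold 0 were higher and 1 was lower, where 4.96% and 3.58% of all genes were, and that gene was ITGAV, a subunit of the integrins by which adenovirus enters, at −0.28. The brightest ITGAV probe set read 822 in shNC and 679 in shRAP1, and its 4 probe sets lay between −0.45 and −0.055. CD55, the decay-accelerating factor to which some coxsackie B strains bind, was at 0.12 with all 6 probe sets higher. The integrin subunit gene ITGB1 was at 0.14 with all 4 measured probe sets higher, by between 0.041 and 0.36. CD46 was at 0.034, with 12 probe sets between −0.14 and 0.11, and DSG2 at 0.047.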

How the data were processed

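The authors deposited 1 intensity value per probe set and array on a linear scale, made with RMA per the submitters' processing notes. That method subtracts background, equalises the distributions of the arrays and combines each set of probes, so differences are relative to the rest of the array. Which version and which arrays entered it is not given in the sources used here. Medians were 77.0 (shNC) and 78.9 (shRAP1).

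Here log2 was taken with no pseudocount and differences computed (numpy 2.4.6, pandas 2.3.3, statsmodels 0.14.6 and matplotlib 3.10.9 under Python 3.11.15). Probe sets with several gene symbols (1832) or none (2473) were left out, as were 102 controls. The genes and lists were chosen with earlier results of these data known. Genes named were all 9 of the set, the targeted genes, up to 4 per list with the largest size, the markers and the 5 nearest to CXADR; others were named after their values were seen. The counting code was run on simulated data with planted differences well past 1.2-fold, which does not test how smaller differences are counted. Alternatives changed the probe set rule, floor, probe sets admitted, lowess centring (span 0.3), fold and summary.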

Additional observations from a re-analysis of the deposited data

Results flagged for a closer look

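A pair of probe sets outside the gene-level comparison, each annotated to a gene of the set and to other loci, read higher in shRAP1 than in the shNC control. The probe set shared by CXADR with its pseudogenes differed by 0.45, close to the 2 dimmer single-gene CXADR probe sets. The one shared by OCLN and OCLNP1 differed by 0.019, opposite in sign to the single-gene OCLN probe sets. The remaining shared probe set, of CLDN12 and GTPBP10, was lower in shRAP1, at −0.34. Each group held 1 array, so samples of a group were not set against each other.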

How the results depend on the processing

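No paired analysis was possible because each group holds a single array. CXADR lay between 0.58 and 0.75 under the 5 alternatives that gave it a value, the lowest being the median of its 4 probe sets (0.58). Changing the floor or admitting probe sets with several symbols kept the same brightest probe set, so these alternatives could not move CXADR. With the _x_at and _s_at probe sets removed it had no value, and the number of tight junction genes 1.2-fold higher went from 1 to 0. Counting all measured probe sets gave 4 higher, all of CXADR. At 1.1-fold 1 gene was lower (OCLN, at −0.14), where 14.4% of all genes were. Of 38 recomputed gene differences, 36 stayed within 1 SD of genes of similar brightness, and the others were CXADR at 0.58 and CLDN12 at −0.25 on its _a_at probe set. Many of the 36 kept the same brightest probe set and so are no check of stability. The sign of 11 of 96 recomputed list medians changed, among them 5 of the desmosome list. Admitting probe sets with several symbols was chosen after seeing the data. Signal limits CLDN1, which lay below the floor.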

Other observations

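Identical differences recurred across the arrays. Of 24192 probe sets below the floor, 78.5% had a difference equal to that of another probe set to 6 decimals, against 30.1% of 25101 past it. Among the tight junction probe sets past the floor, that of CLDN3 (0.087) was shared by 4 probe sets in all, and those of 11754050_x_at for CXADR and 11720205_a_at for CLDN12 by 2 each.

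PATJ, a polarity scaffold of the plaque that the naming rule did not choose and that was picked out after its values were seen, was higher on all 7 of its probe sets. Its brightest probe set read 566 in shNC and 603 in shRAP1, a difference of 0.090. The 4 others past the floor differed by between 0.20 and 0.36, and the 2 below it by 0.39 and 0.53.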
